A study of Mus musculus with 23 samples.

Results

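A list of 34 mouse genes that mark the lining cells of blood vessels were followed through 23 Affymetrix arrays of cells purified from the mammary gland, and all 34 had a probe set on the array. They were taken as a list of known endothelial genes from 18193 genes with a probe set of a single gene symbol, and where a gene had several probe sets the one whose mean over the arrays was highest stood for it. The arrays hold messenger RNA of female C57BL/6 mice, an inbred strain, with no treatment or engineered allele named for any group. The 3 purified epithelial types are called stem cells (8 arrays), luminal progenitors (7 arrays) and mature luminal cells (8 arrays) in the labels. In 3-week virgins there were 2 arrays of stem cells, 2 of luminal progenitors and 1 of mature luminal cells. At 9 weeks all 3 types had 2 arrays from virgin mice. At day 10 of pregnancy stem and mature luminal cells had 2 arrays and luminal progenitors had 1, at day 16 each type had 1, at day 19 there was 1 array, of mature luminal cells, and retired breeders had 1 array of each type. Retired breeders differ from virgins in age and in parity, which cannot be told apart. The sources used here name no surface marker or gate of the purification and do not say whether the 2 arrays of a group came from separate animals, so p-values measure only the spread between these arrays, which may be technical.

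Endothelial cells form the inner lining of blood and lymphatic vessels. They grow and survive in response to vascular endothelial growth factors (VEGF) and angiopoietins, which bind receptor kinases on their surface, and they hold together through adherens and tight junctions that are built from proteins such as VE-cadherin. Their identity is kept by ETS-family factors such as ERG and FLI1 together with SOXF factors (SOX7, SOX17 and SOX18). In the mammary gland a capillary bed surrounds the ducts and alveoli within the fat pad and expands during pregnancy, so that a digest of the gland holds endothelial cells next to the 2 epithelial layers. Several of the genes are also made elsewhere: Cd34 by fibroblasts and blood progenitors, and Fli1, Tal1 and Lmo2 by blood cells. In purified cells measured in bulk, a lower value from fewer cells of a type and one from less RNA per cell cannot be told apart.

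The deposited values are on a log2 scale, where a difference of 1 is a 2-fold difference, and array medians lay between 4.51 and 5.47. The 13 basal epithelial markers averaged 10.2 to 12.6 on the stem arrays, against 7.83 to 11.1 on progenitor and 7.61 to 9.79 on mature luminal arrays. The 13 luminal markers averaged 9.88 to 11.1 on stem, 10.9 to 11.7 on progenitor and 11.1 to 11.9 on mature luminal arrays. The basal means of stem arrays overlapped only that of the day-16 progenitor array, at 11.08. None of the 34 endothelial genes was at the floor of 0 on any array. As a sign of RNA quality, the 3′ probe set of Gapdh minus its 5′ probe set was 5.16 log2 on the 3-week mature luminal array, 3.77 on the retired stem array and 0.87 to 2.72 on the other 21. RNA that is more broken down tends to give a larger excess. Arrays with the same replicate number in their titles deviated alike from their group means, so fits that take this number as a block are reported where they change a count by over 1.5 times.

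The mean over the endothelial genes was highest on the stem arrays of virgin mice and lower on those of pregnant mice, although single genes such as Apln departed from this. The mean log2 level of the 34 genes on the stem arrays was 10.40 and 10.92 at 3 weeks, 8.76 and 8.89 at 9 weeks, 6.07 and 6.31 at day 10, 6.57 at day 16 and 8.19 in retired breeders. Luminal progenitors had means of 6.19 and 6.69 at 3 weeks, 5.83 and 5.39 at 9 weeks, 7.09 at day 10, 7.70 at day 16 and 6.93 in retired breeders. In mature luminal cells the means were 7.72 at 3 weeks, 5.67 and 5.26 at 9 weeks, 4.98 and 6.19 at day 10, 5.01 at day 16, 5.76 at day 19 and 7.38 in retired breeders. All 4 virgin stem arrays lay above the other 19 arrays, and both pregnant progenitor arrays lay above all 3 pregnant stem arrays.

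**Figure D1:**
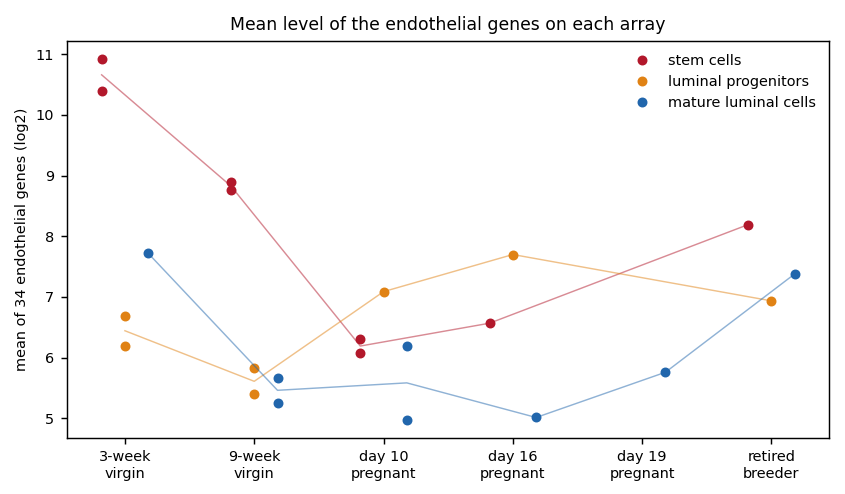
Mean deposited log2 value of the 34 endothelial genes (vertical axis) on each array by reproductive stage (horizontal axis). Each point is 1 array and lines join the means of a cell type's stages. The stem arrays lie at 8.76 to 10.92 in virgins, 6.07 to 6.57 in pregnancy and 8.19 in retired breeders, and the pregnant progenitor arrays at 7.09 and 7.70 lie above the pregnant stem arrays.

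Promoter sequences of 4 members are shown, all of which hold the core that ETS factors bind. This core (CAGGAA or CCGGAA, read on both strands, so also TTCCTG or TTCCGG) is in capitals. Each is 300 bases, 250 before to 50 after the annotated start, 5′ to 3′ on the strand of the gene, from RefSeq on GRCm38.p6. The first is that of Tek, the angiopoietin receptor Tie2, at chr4:94739039-94739338 on the + strand, with 2 cores.
Tek: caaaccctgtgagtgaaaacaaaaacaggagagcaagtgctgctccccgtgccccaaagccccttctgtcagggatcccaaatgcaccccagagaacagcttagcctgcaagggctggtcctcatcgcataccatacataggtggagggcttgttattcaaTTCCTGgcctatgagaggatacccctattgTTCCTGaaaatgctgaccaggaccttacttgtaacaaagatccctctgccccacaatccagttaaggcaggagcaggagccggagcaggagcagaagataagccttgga
The promoter of Tie1, its partner receptor, at chr4:118489800-118490099 on the - strand, holds 1 core.
Tie1: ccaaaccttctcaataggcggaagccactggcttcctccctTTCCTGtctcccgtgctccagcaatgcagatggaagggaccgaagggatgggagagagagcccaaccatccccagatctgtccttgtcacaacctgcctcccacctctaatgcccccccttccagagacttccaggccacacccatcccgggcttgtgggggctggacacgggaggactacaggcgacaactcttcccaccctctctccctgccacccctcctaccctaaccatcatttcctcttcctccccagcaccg
That of Robo4, an endothelial guidance receptor, at chr9:37401722-37402021 on the + strand, also holds 1.
Robo4: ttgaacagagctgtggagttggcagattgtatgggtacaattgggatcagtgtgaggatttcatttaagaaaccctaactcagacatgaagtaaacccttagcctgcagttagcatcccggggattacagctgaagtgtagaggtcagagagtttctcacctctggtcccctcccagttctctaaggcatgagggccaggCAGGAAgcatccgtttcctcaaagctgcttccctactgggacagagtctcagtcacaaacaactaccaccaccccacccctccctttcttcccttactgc
That of Esm1, which codes for the secreted proteoglycan endocan, at chr13:113209409-113209708 on the + strand, holds 2.
Esm1: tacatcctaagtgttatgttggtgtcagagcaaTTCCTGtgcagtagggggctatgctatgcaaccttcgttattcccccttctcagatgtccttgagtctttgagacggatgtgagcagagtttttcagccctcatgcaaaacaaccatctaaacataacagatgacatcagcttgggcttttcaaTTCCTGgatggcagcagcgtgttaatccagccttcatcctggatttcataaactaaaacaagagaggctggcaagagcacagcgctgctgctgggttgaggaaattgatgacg
The RefSeq table held 21 promoters of 16 of the 34 genes. The promoters of Cldn5, Flt1 and Flt4, both of Tal1, and some of Egfl7 and Erg held no ETS core. The ETS core was found in 13 of the 21 (61.9%), against 41.4% of all 32851 promoters of the same length, and 2 or more cores in 6 (28.6%), against 11.9%. A SOX core (AACAAT, both strands) was found in 3 (14.3%), against 10.7%, and a GATA core (AGATAA, both strands) in 3 (14.3%), against 11.2%. A TATA box (TATAAA on the strand of the gene) was found in 1 (4.76%), against 8.32%. Matches of different motifs can share letters, as the SOX match of Tek does with the second of its ETS cores, and a match is only an occurrence of these letters.

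The comparison of stem with mature luminal cells over the 5 stages that have both gave 21 of 34 endothelial genes higher and 0 lower in stem cells (limma, p adjusted by Benjamini-Hochberg across the 15378 genes tested, threshold 0.05). Of all genes, 6.78% were higher and 1.56% lower. The median difference of the 34 was 1.88 log2, against -0.03 for all genes, and 33 were positive. Fibroblast markers had a median of 2.30 log2, with 10 of 10 positive and 5 past the threshold, and their part in the result was not tested. Only Apln, the ligand apelin, had the opposite sign among the 34, at -0.11 ± 0.62 log2 (SE). The progenitor marker Cd34 differed by 2.70 ± 0.34 log2 (adjusted p = 0.000774), the matrix glycoprotein gene Mmrn2 by 2.17 ± 0.30 (adjusted p = 0.00114), the fenestral diaphragm gene Plvap by 1.89 ± 0.29 and the junction gene Esam by 2.26 ± 0.35 (adjusted p = 0.00205 for both). Within the arrays titled replicate 1, 7 genes were higher with a median of 2.27 log2, and within the other arrays 4 were, with a median of 2.08. Leaving out 1 array at a time gave 15 to 23 genes, and 15 of the 21 passed each time, among them Cd34, Mmrn2, Plvap, Esam, Flt4, Sox17, Tie1, Ramp2, Egfl7 and Robo4.

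Against luminal progenitors, 12 of 34 were higher and 0 lower in stem cells over the same 5 stages, where 3.6% of all genes were higher and 0.78% lower. The median difference was 1.39 log2, against 0.04 for all genes, and all 34 were positive. Plvap (1.64 ± 0.29 log2, adjusted p = 0.0118), Mmrn2 (1.66 ± 0.30, adjusted p = 0.0129) and Esam (1.87 ± 0.35, adjusted p = 0.0139) had the smallest p. With the replicate number as a block over all arrays 21 genes were higher. The count was 33 with the block over the numbered arrays, which hold both types in virgins only. Calls over all genes rose as well, from 673 without a block to 2220 and 1744 in the same order. Within arrays titled replicate 1, which hold progenitors of virgins only, the median was 3.25 log2. Within the others, which hold both types at all 5 stages, it was 1.53. Between virgin arrays of the same number the medians were 4.085 (number 1) and 4.275 (number 2) at 3 weeks. At 9 weeks they were 2.87 and 3.745 in the same order. The count was 5 without the second 3-week stem array, and 7 without the first 3-week stem array, the second 3-week progenitor array or the first day-10 stem array.

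Luminal progenitors and mature luminal cells had 0 of 34 genes past the threshold in either direction by limma, with 3 at an unadjusted p under 0.05 (0.124% of all genes passed, 0.117% higher in progenitors). The median difference, progenitors minus mature luminal cells, was 0.51 log2, against -0.02 for all genes. It was -0.13 without either day-16 array and 0.14 without the day-10 progenitor array, so its sign was not stable. Without the 3-week mature luminal array it was 1.03, and without either retired array 0.80. Within the arrays titled replicate 1 it was -0.94, from a fit that adds a stage term and a cell type term. Those arrays hold progenitors at 3 and 9 weeks only, and mature luminal cells at 9 weeks, day 10 and day 19 only. At 9 weeks, the stage with both, the median difference between arrays of number 1 was 0.19 log2. Over all arrays fibroblast markers had a median of 3.96 log2, with 10 of 10 positive and 4 past the threshold, and their part was not tested. The smallest p belonged to Cd34, at 2.08 ± 0.35 log2 with an adjusted p of 0.0561, followed by Flt4 (1.06 ± 0.36) and Tek (1.38 ± 0.56). With the block over all arrays 1 gene was higher, and 1 without the 3-week mature luminal array.

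These averages hide a difference between virgin and pregnant mice, so the cell types were also compared within each state, a choice made after the values had been seen. In virgins of 3 and 9 weeks, 32 of 34 endothelial genes were higher in stem cells than in luminal progenitors and 0 were lower, where 4.6% of all genes passed, 4.24% higher and 0.358% lower. The median difference was 3.75 log2, against 0.01 for all genes. The 2 that did not pass were the ETS factor gene Fli1, at 3.10 ± 0.94 log2 (adjusted p = 0.0992), and Apln, at 0.98 ± 0.80. Erg (5.35 ± 0.60 log2, adjusted p = 0.00115), Gpihbp1 (5.13 ± 0.92, adjusted p = 0.00876) and Sox17 (5.05 ± 0.57, adjusted p = 0.00115) had large differences. Their size is uncertain for Erg and Gpihbp1, whose 4 virgin progenitor values all lay below the median of their array, where values can be background. All 4 stem arrays lay above all 4 progenitor arrays for 28 of 34 genes, against 7.18% of all genes. Without the second 3-week stem array 21 were higher, and without each of the other 7 arrays in turn 23 to 32.

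In days 10 and 16 of pregnancy 0 of the 34 genes differed between stem cells and luminal progenitors by limma, with 5 at an unadjusted p under 0.05. As 0% of all genes passed, this count shows nothing particular to these genes. The 13 basal markers also had 0 past the threshold, though all 13 were positive, with a median of 1.765 log2. Of the 34, 30 had a negative difference, stem minus progenitor, with a median of -0.93 log2, against -0.05 for all genes. Erg was at -2.22 ± 0.79 log2 (adjusted p = 0.277), Esm1 at -1.80 ± 0.66 and Lmo2 at -1.57 ± 0.61. The block over all arrays gave 1 gene lower in stem cells, and called 651 of all genes. Fibroblast markers ran the same way, with a median of -3.31 log2 over 10 genes, 0 past the threshold and 7 at an unadjusted p under 0.05 (limma), as did leukocyte markers, with a median of -1.62 over 15 genes, 0 past the threshold and 3 at an unadjusted p under 0.05. The part of these cells in the endothelial difference was not tested. For 0 of the 34 genes did all 3 pregnant stem arrays lie above both pregnant progenitor arrays, against 17.8% of all genes.

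Whether the gap between the cell types differed between the states was tested as an interaction, also chosen after the values had been seen. Taken as the stem minus progenitor difference in pregnancy less that in virgins, it was negative for all 34 genes and passed for 15, with a median of -4.86 log2, against -0.08 for all genes, of which 0.618% were lower and 0.039% higher. The 15 are Tek, Tie1, Pecam1, Esam, Cd34, Emcn, Ecscr, Robo4, Erg, Sox17, Lmo2, Plvap, Ramp2, Mmrn2 and Esm1. Mmrn2 was at -5.12 ± 0.64 log2, Esm1 at -6.52 ± 0.83 and Erg at -7.57 ± 0.99, all with a limma adjusted p of 0.0121. The size for Erg is uncertain, since its virgin progenitor and pregnant stem values all lay below the median of their array. The block over all arrays gave 30 genes, and called 458 of all genes, against 101 without it. In every fit that left 1 array out, calls over all genes fell along with the count of the 34. The count fell to 0 without the second 3-week stem array, the day-10 progenitor array, the day-16 stem array or the day-16 progenitor array, and was 3 without the first 3-week progenitor or first day-10 stem array, 5 without the first 3-week stem, the second 9-week stem or the second 9-week progenitor array, and 6 without the first 9-week stem array, while the median stayed between -5.08 and -4.58 log2.

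Set against mature luminal cells, virgin stem cells had 20 of 34 genes higher and 0 lower, with a median of 3.20 log2, where 1.44% of all genes were higher, 0.306% lower and the median of all genes was -0.17. Fibroblast markers had a median of 2.26 log2 (9 of 10 positive, 1 past the threshold) and leukocyte markers one of -1.62 (14 of 15 negative, 0 past it, 1 at an unadjusted p under 0.05 by limma), and their part was not tested. All 4 virgin stem arrays lay above all 3 virgin mature luminal arrays for 23 genes, against 4.68% of all genes. With the block over all arrays 32 were higher, and 1286 of all genes were called, against 268 without it. The count was 3 without the second 3-week stem array, 11 without the first, 12 without the second 9-week mature luminal array and 13 without the second 9-week stem array. In pregnancy 2 were higher in stem cells and 0 lower, where 5.19% of all genes passed, 4.89% higher and 0.299% lower, with a median of 1.37 log2, against 0.07 for all genes. That median was 0.81 without the day-16 stem, the day-16 mature luminal or the first day-10 mature luminal array. Fibroblast markers had a median of 2.65 log2 in pregnancy (10 of 10 positive, 4 past the threshold), and their part was not tested. The genes past the threshold were Cd34 (3.38 ± 0.54 log2, adjusted p = 0.00383) and Sox17 (2.72 ± 0.69, adjusted p = 0.0434). All 3 pregnant stem arrays lay above all 3 mature luminal arrays of days 10 and 16 for 11 of 34, against 15.3% of all genes. The block over all arrays gave 7 higher and the block over numbered arrays 1, and the count was 0 without the day-16 stem or the day-16 mature luminal array, 1 without the first day-10 stem or first day-10 mature luminal array and 6 without the second day-10 mature luminal array.

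**Figure D2:**
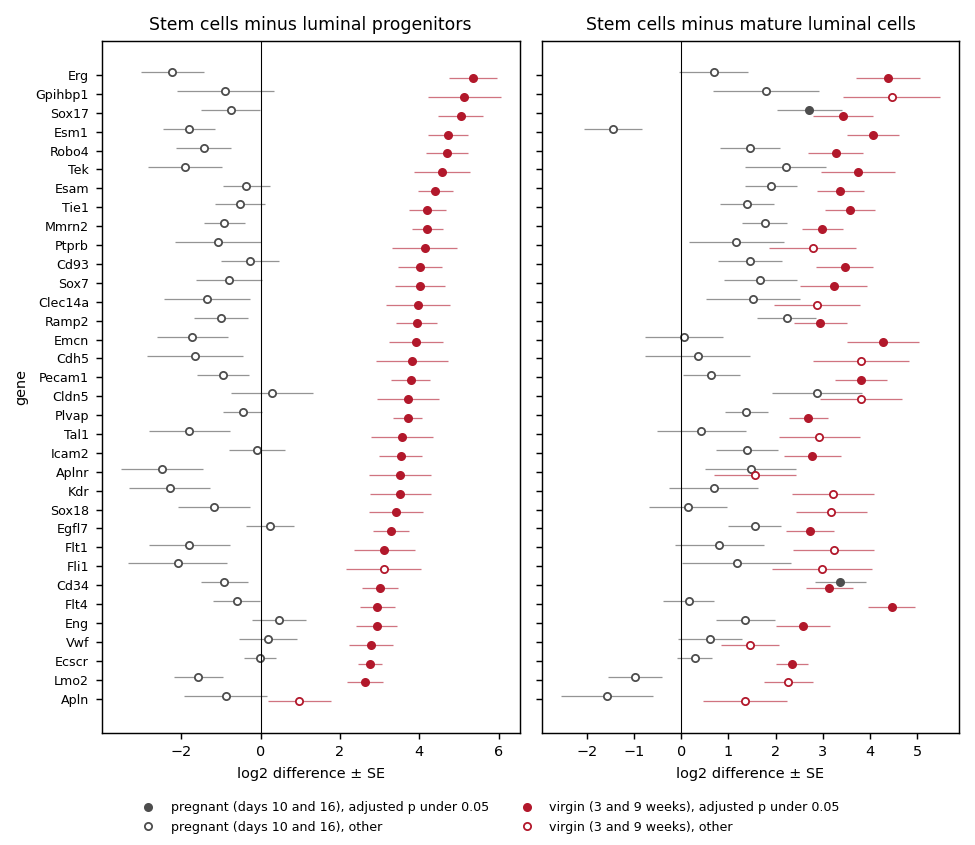
Difference in log2 level (horizontal axis) of stem cells minus luminal progenitors (left) and stem cells minus mature luminal cells (right) for each of the 34 genes (vertical axis), with standard errors from the model as bars. Grey points are pregnant mice (days 10 and 16) and red points virgins (3 and 9 weeks), filled where the adjusted p was under 0.05. In the left panel 0 grey and 32 red points are filled, and in the right panel 2 grey and 20 red points.

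All 3 receptors of VEGF were higher in virgin stem cells than in virgin progenitors, where 4.24% of all genes were. In pregnant against 9-week stem cells 1 of 3 was lower, Flt4, where 0.221% of all genes were. All 3 had an unadjusted p under 0.05 (limma). The differences were -4.46 log2 for Kdr, -4.365 for Flt1 and -4.35 for Flt4. Flt4, or VEGF receptor 3, binds VEGF-C and VEGF-D and is strongest in lymphatic endothelium. Log2 levels of Flt4 on stem arrays were 9.69 and 8.64 at 3 weeks, 7.95 and 7.94 at 9 weeks, 3.82 and 3.44 at day 10, 3.56 at day 16 and 5.58 in retired breeders. In luminal progenitors Flt4 had log2 levels of 6.71 and 6.55 at 3 weeks, 5.12 and 4.07 at 9 weeks, 3.62 at day 10, 4.77 at day 16 and 4.41 in retired breeders. Mature luminal Flt4 log2 levels were 4.92 at 3 weeks, 3.42 and 3.13 at 9 weeks, 3.70 and 4.0 at day 10, 3.03 at day 16, 3.83 at day 19 and 3.63 in retired breeders. The 4 virgin stem arrays lay above the other 19, and the 3 pregnant stem arrays lay within the range of the mature luminal arrays. Kdr, or VEGF receptor 2, is the main signalling receptor of VEGF-A. Kdr had log2 levels of 2.93 to 12.52 (median 9.55) on the 8 stem, 6.54 to 9.21 (median 7.20) on the 7 progenitor and 4.84 to 9.61 (median 6.08) on the 8 mature luminal arrays. The lowest Kdr value of all, 2.93, was on the first day-10 stem array, and the highest, 12.52, on the second 3-week stem array. Flt1, or VEGF receptor 1, binds VEGF-A tightly and also circulates in a soluble form. Flt1 had log2 levels of 3.57 to 12.71 (median 9.36) on the 8 stem, 6.84 to 9.26 (median 7.70) on the 7 progenitor and 4.52 to 9.27 (median 6.63) on the 8 mature luminal arrays. Its virgin stem arrays at 9.02 to 12.71 overlapped the progenitors of 3 weeks, which reached 9.26. Virgin stem cells exceeded virgin progenitors for 3 of 3 receptors, by 2.94 ± 0.45 log2 for Flt4, 3.52 ± 0.77 for Kdr and 3.12 ± 0.77 for Flt1.

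In virgins all 3 genes of the angiopoietin receptor group were higher in stem cells than in progenitors, where 4.24% of all genes were. In pregnant against 9-week stem cells 0 of 3 passed, where 0.26% of all genes did. All 3 had an unadjusted p under 0.05 (limma), with a median of -2.95 log2. Tek, or Tie2, binds the angiopoietins, which keep vessels stable or loosen them. Log2 levels of Tek on stem arrays were 10.95 and 12.09 at 3 weeks, 10.23 and 10.35 at 9 weeks, 7.10 and 6.58 at day 10, 6.82 at day 16 and 9.21 in retired breeders. In luminal progenitors Tek had log2 levels of 5.66 and 8.06 at 3 weeks, 5.37 and 6.28 at 9 weeks, 8.63 at day 10, 8.82 at day 16 and 8.59 in retired breeders. Mature luminal Tek log2 levels were 9.49 at 3 weeks, 4.57 and 5.11 at 9 weeks, 3.10 and 6.26 at day 10, 4.55 at day 16, 4.90 at day 19 and 8.26 in retired breeders. Virgin stem arrays lay above the other 19, and the pregnant stem arrays lay below both pregnant progenitor arrays and above the pregnant mature luminal ones. Tie1 is an orphan receptor kinase that pairs with Tek. Log2 levels of Tie1 on stem arrays were 9.97 and 10.66 at 3 weeks, 8.29 and 8.40 at 9 weeks, 5.94 and 5.48 at day 10, 5.64 at day 16 and 7.27 in retired breeders. In luminal progenitors Tie1 had log2 levels of 5.92 and 6.10 at 3 weeks, 4.97 and 3.51 at 9 weeks, 5.80 at day 10, 6.57 at day 16 and 5.10 in retired breeders. Mature luminal Tie1 log2 levels were 7.27 at 3 weeks, 4.5 and 3.99 at 9 weeks, 4.07 and 5.31 at day 10, 3.87 at day 16, 5.39 at day 19 and 6.14 in retired breeders. Its virgin stem arrays, at 8.29 to 10.66, did not overlap any other group, while pregnant stem and progenitor arrays overlapped. Ptprb, the phosphatase VE-PTP, dampens Tek signalling and acts on VE-cadherin. Ptprb had log2 levels of 6.00 to 12.34 (median 9.54) on the 8 stem, 5.17 to 8.82 (median 7.87) on the 7 progenitor and 5.07 to 10.32 (median 6.12) on the 8 mature luminal arrays. The single 3-week mature luminal array was high in Ptprb, at 10.32, and the 9-week stem arrays at 9.27 and 11.19 lay on both sides of it.

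Of the members, 11 act at junctions or on the cell surface. In virgins 11 of 11 were higher in stem cells than in progenitors, where 4.24% of all genes were. Pecam1, or CD31, is the adhesion molecule most often used to mark endothelium. Log2 levels of Pecam1 on stem arrays were 10.17 and 10.23 at 3 weeks, 8.43 and 8.50 at 9 weeks, 4.44 and 4.91 at day 10, 5.37 at day 16 and 5.79 in retired breeders. In luminal progenitors Pecam1 had log2 levels of 6.37 and 5.65 at 3 weeks, 5.84 and 4.36 at 9 weeks, 5.38 at day 10, 6.55 at day 16 and 5.24 in retired breeders. Mature luminal Pecam1 log2 levels were 6.01 at 3 weeks, 5.43 and 4.63 at 9 weeks, 4.06 and 5.42 at day 10, 4.03 at day 16, 5.59 at day 19 and 6.69 in retired breeders. Its virgin stem arrays, from 8.43 upwards, lay above the other 19, whose highest was 6.69, and the retired stem array at 5.79 lay among those. Cdh5 codes for VE-cadherin, the adherens junction protein of endothelium. Log2 levels of Cdh5 on stem arrays were 11.00 and 9.71 at 3 weeks, 9.60 and 7.06 at 9 weeks, 3.33 and 3.71 at day 10, 5.44 at day 16 and 6.91 in retired breeders. In luminal progenitors Cdh5 had log2 levels of 7.36 and 5.15 at 3 weeks, 6.77 and 2.84 at 9 weeks, 5.62 at day 10, 6.62 at day 16 and 5.11 in retired breeders. Mature luminal Cdh5 log2 levels were 6.31 at 3 weeks, 5.81 and 3.72 at 9 weeks, 5.06 and 4.71 at day 10, 3.38 at day 16, 5.83 at day 19 and 6.51 in retired breeders. The groups overlapped, since the second 9-week stem array at 7.06 lay below the first 3-week progenitor array at 7.36 in Cdh5. Esam is an adhesion molecule of endothelial tight junctions. Log2 levels of Esam on stem arrays were 10.64 and 11.40 at 3 weeks, 9.68 and 9.19 at 9 weeks, 7.88 and 7.40 at day 10, 7.43 at day 16 and 8.78 in retired breeders. In luminal progenitors Esam had log2 levels of 5.91 and 6.32 at 3 weeks, 5.53 and 5.53 at 9 weeks, 7.35 at day 10, 8.44 at day 16 and 7.51 in retired breeders. Mature luminal Esam log2 levels were 8.07 at 3 weeks, 5.62 and 5.65 at 9 weeks, 5.01 and 6.84 at day 10, 5.35 at day 16, 5.18 at day 19 and 8.01 in retired breeders. All 4 virgin stem arrays lay above the other 19 for Esam.

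Cd34 codes for a sialomucin of capillaries that is also made by other stromal cells. Log2 levels of Cd34 on stem arrays were 12.34 and 12.31 at 3 weeks, 9.15 and 10.81 at 9 weeks, 8.40 and 9.72 at day 10, 9.37 at day 16 and 9.67 in retired breeders. In luminal progenitors Cd34 had log2 levels of 8.43 and 9.00 at 3 weeks, 7.78 and 7.36 at 9 weeks, 10.07 at day 10, 10.19 at day 16 and 10.78 in retired breeders. Mature luminal Cd34 log2 levels were 8.83 at 3 weeks, 7.65 and 6.74 at 9 weeks, 6.78 and 6.94 at day 10, 4.82 at day 16, 7.82 at day 19 and 9.21 in retired breeders. The retired and pregnant progenitor arrays, at 10.07 to 10.78, lay above all pregnant stem arrays and above the first 9-week stem array. Robo4 steadies vessels against VEGF signalling. Log2 levels of Robo4 on stem arrays were 11.22 and 11.41 at 3 weeks, 9.72 and 8.99 at 9 weeks, 6.19 and 6.42 at day 10, 6.67 at day 16 and 8.55 in retired breeders. In luminal progenitors Robo4 had log2 levels of 6.10 and 5.69 at 3 weeks, 6.05 and 4.72 at 9 weeks, 7.72 at day 10, 8.12 at day 16 and 7.13 in retired breeders. Mature luminal Robo4 log2 levels were 8.21 at 3 weeks, 6.82 and 5.0 at 9 weeks, 4.82 and 6.22 at day 10, 4.55 at day 16, 6.84 at day 19 and 7.49 in retired breeders. Virgin stem arrays lay above the other 19, and pregnant stem arrays below both pregnant progenitor arrays. Ecscr is an endothelial surface protein that affects migration and survival. Log2 levels of Ecscr on stem arrays were 12.14 and 11.85 at 3 weeks, 10.68 and 9.69 at 9 weeks, 9.42 and 9.31 at day 10, 10.68 at day 16 and 9.14 in retired breeders. In luminal progenitors Ecscr had log2 levels of 8.76 and 8.50 at 3 weeks, 8.17 and 7.89 at 9 weeks, 10.16 at day 10, 9.90 at day 16 and 8.96 in retired breeders. Mature luminal Ecscr log2 levels were 9.01 at 3 weeks, 8.30 and 8.66 at 9 weeks, 9.25 and 9.54 at day 10, 10.07 at day 16, 8.84 at day 19 and 9.37 in retired breeders. Virgin stem arrays lay above the other virgin arrays, and in pregnancy the 3 cell types overlapped.

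The other surface members are given by their ranges. Cldn5 is the main claudin of endothelial tight junctions. Cldn5 had log2 levels of 7.95 to 11.82 (median 9.24) on the 8 stem, 5.88 to 8.81 (median 7.40) on the 7 progenitor and 4.61 to 8.71 (median 5.57) on the 8 mature luminal arrays. Icam2 is an adhesion molecule for leukocytes. Icam2 had log2 levels of 5.23 to 10.51 (median 7.75) on the 8 stem, 5.29 to 6.73 (median 5.63) on the 7 progenitor and 3.72 to 6.99 (median 5.60) on the 8 mature luminal arrays. Emcn codes for endomucin, a sialomucin of veins and capillaries. Emcn had log2 levels of 5.54 to 11.69 (median 8.77) on the 8 stem, 4.92 to 8.35 (median 6.94) on the 7 progenitor and 4.83 to 8.19 (median 6.5) on the 8 mature luminal arrays. All 3 pregnant stem arrays had Emcn at 5.54 to 5.83, below both 9-week stem arrays. Cd93 is a receptor for the matrix protein made by Mmrn2. Cd93 had log2 levels of 7.36 to 12.67 (median 10.38) on the 8 stem, 6.15 to 8.78 (median 8.44) on the 7 progenitor and 5.44 to 9.91 (median 7.76) on the 8 mature luminal arrays. Clec14a, a relative of Cd93, binds the same protein. Clec14a had log2 levels of 2.30 to 10.24 (median 4.70) on the 8 stem, 2.53 to 5.10 (median 4.15) on the 7 progenitor and 1.87 to 6.09 (median 2.81) on the 8 mature luminal arrays. Stem arrays spanned the widest range of the 3 types for Emcn, Cd93 and Clec14a.

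Of 7 endothelial transcription factors, 0 passed in pregnant against 9-week stem cells, where 0.26% of all genes did. Of the 7, 6 had an unadjusted p under 0.05 (limma), and the median was -2.58 log2. Erg is the ETS factor most typical of endothelium. Log2 levels of Erg on stem arrays were 8.92 and 9.58 at 3 weeks, 6.82 and 7.07 at 9 weeks, 3.60 and 4.0 at day 10, 2.16 at day 16 and 6.68 in retired breeders. In luminal progenitors Erg had log2 levels of 3.83 and 4.66 at 3 weeks, 1.97 and 0.52 at 9 weeks, 4.59 at day 10, 5.81 at day 16 and 5.32 in retired breeders. Mature luminal Erg log2 levels were 5.56 at 3 weeks, 1.26 and 2.48 at 9 weeks, 1.58 and 3.67 at day 10, 1.96 at day 16, 2.67 at day 19 and 5.40 in retired breeders. The 4 virgin stem arrays lay above the other 19, with the retired stem array at 6.68 next, and all 3 pregnant stem arrays lay below both pregnant progenitor arrays. Sox17 is a SOXF factor of arterial endothelium. Log2 levels of Sox17 on stem arrays were 11.30 and 11.97 at 3 weeks, 10.33 and 9.76 at 9 weeks, 8.61 and 7.36 at day 10, 7.87 at day 16 and 10.12 in retired breeders. In luminal progenitors Sox17 had log2 levels of 5.27 and 6.86 at 3 weeks, 5.12 and 5.93 at 9 weeks, 8.57 at day 10, 8.79 at day 16 and 8.31 in retired breeders. Mature luminal Sox17 log2 levels were 9.37 at 3 weeks, 5.80 and 5.11 at 9 weeks, 4.47 and 6.58 at day 10, 4.90 at day 16, 5.40 at day 19 and 8.67 in retired breeders. The retired stem array, at 10.12, lay among the virgin stem arrays. Tal1 is a helix-loop-helix factor of blood and endothelial precursors. Log2 levels of Tal1 on stem arrays were 7.31 and 9.64 at 3 weeks, 3.82 and 6.32 at 9 weeks, 1.71 and 3.25 at day 10, 2.80 at day 16 and 6.86 in retired breeders. In luminal progenitors Tal1 had log2 levels of 2.85 and 4.69 at 3 weeks, 2.20 and 3.08 at 9 weeks, 3.49 at day 10, 5.38 at day 16 and 5.57 in retired breeders. Mature luminal Tal1 log2 levels were 6.44 at 3 weeks, 1.64 and 0.85 at 9 weeks, 2.14 and 3.35 at day 10, 1.68 at day 16, 2.29 at day 19 and 5.74 in retired breeders. Tal1 arrays of virgin stem cells spread from 3.82 to 9.64 and overlapped the other types. Lmo2, an adaptor protein that works with Tal1, is also found in blood cells. Log2 levels of Lmo2 on stem arrays were 11.09 and 11.23 at 3 weeks, 10.03 and 10.09 at 9 weeks, 8.49 and 8.20 at day 10, 8.58 at day 16 and 9.45 in retired breeders. In luminal progenitors Lmo2 had log2 levels of 7.11 and 8.57 at 3 weeks, 7.13 and 9.11 at 9 weeks, 10.17 at day 10, 9.89 at day 16 and 9.22 in retired breeders. Mature luminal Lmo2 log2 levels were 9.72 at 3 weeks, 6.85 and 7.09 at 9 weeks, 8.38 and 9.17 at day 10, 10.10 at day 16, 9.49 at day 19 and 9.14 in retired breeders. Virgin stem arrays lay above the other virgin arrays, and both pregnant progenitor arrays lay above the 3 pregnant stem arrays.

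Fli1 is an ETS factor of endothelium and blood. Fli1 had log2 levels of 3.71 to 10.16 (median 7.75) on the 8 stem, 4.09 to 7.86 (median 6.70) on the 7 progenitor and 3.26 to 7.93 (median 4.71) on the 8 mature luminal arrays. Sox7 is a SOXF factor of vessel precursors. Sox7 had log2 levels of 7.44 to 11.77 (median 9.76) on the 8 stem, 5.86 to 8.83 (median 7.5) on the 7 progenitor and 5.15 to 8.60 (median 6.95) on the 8 mature luminal arrays. Sox18 is needed for lymphatic vessels. Sox18 had log2 levels of 3.32 to 9.44 (median 6.71) on the 8 stem, 3.30 to 5.91 (median 5.41) on the 7 progenitor and 3.34 to 5.73 (median 4.67) on the 8 mature luminal arrays. In virgins 6 of 7 factors were higher in stem cells than in progenitors, where 4.24% of all genes were. Their differences ran from 2.63 ± 0.46 log2 for Lmo2 to 5.35 ± 0.60 for Erg. In pregnancy all 7 had a negative difference, with 2 at an unadjusted p under 0.05 (limma). None of them passed the threshold, where 0% of all genes did.

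All 5 genes of vessel function were higher in stem cells than in progenitors in virgins, where 4.24% of all genes were. Plvap forms the diaphragms of fenestrae and caveolae. Log2 levels of Plvap on stem arrays were 12.18 and 12.78 at 3 weeks, 10.27 and 10.78 at 9 weeks, 7.94 and 8.35 at day 10, 9.24 at day 16 and 10.42 in retired breeders. In luminal progenitors Plvap had log2 levels of 8.21 and 8.73 at 3 weeks, 7.31 and 6.95 at 9 weeks, 8.97 at day 10, 9.32 at day 16 and 8.73 in retired breeders. Mature luminal Plvap log2 levels were 10.09 at 3 weeks, 7.44 and 7.61 at 9 weeks, 6.63 and 8.0 at day 10, 7.31 at day 16, 7.77 at day 19 and 9.14 in retired breeders. The virgin stem arrays and the retired stem array lay above the other 18. Ramp2 is the co-receptor that lets endothelium sense adrenomedullin. Log2 levels of Ramp2 on stem arrays were 10.72 and 11.92 at 3 weeks, 8.91 and 9.22 at 9 weeks, 7.26 and 6.99 at day 10, 7.86 at day 16 and 8.82 in retired breeders. In luminal progenitors Ramp2 had log2 levels of 6.15 and 7.64 at 3 weeks, 5.64 and 5.62 at 9 weeks, 8.42 at day 10, 8.55 at day 16 and 7.60 in retired breeders. Mature luminal Ramp2 log2 levels were 8.89 at 3 weeks, 5.98 and 5.21 at 9 weeks, 4.69 and 6.39 at day 10, 4.98 at day 16, 5.23 at day 19 and 7.98 in retired breeders. The 3 pregnant stem arrays lay between the mature luminal and the progenitor arrays of pregnancy. Eng codes for endoglin, a co-receptor of the TGF-beta family. Log2 levels of Eng on stem arrays were 10.40 and 10.66 at 3 weeks, 9.63 and 8.05 at 9 weeks, 7.38 and 7.13 at day 10, 6.65 at day 16 and 8.39 in retired breeders. In luminal progenitors Eng had log2 levels of 7.03 and 7.16 at 3 weeks, 6.77 and 6.08 at 9 weeks, 6.29 at day 10, 6.70 at day 16 and 7.01 in retired breeders. Mature luminal Eng log2 levels were 6.60 at 3 weeks, 6.69 and 8.51 at 9 weeks, 5.25 and 6.32 at day 10, 5.40 at day 16, 6.40 at day 19 and 7.68 in retired breeders. The second 9-week stem array, at 8.05, lay below the second 9-week mature luminal array, at 8.51, so stem and mature luminal cells overlapped in virgins. Gpihbp1 carries lipoprotein lipase across capillaries. Gpihbp1 had log2 levels of 3.22 to 8.70 (median 7.27) on the 8 stem, 2.10 to 7.13 (median 3.51) on the 7 progenitor and 1.75 to 6.75 (median 3.71) on the 8 mature luminal arrays. Pregnant and retired progenitors had Gpihbp1 at 6.08 to 7.13, against 2.10 to 3.51 on the 4 virgin progenitor arrays. Vwf codes for von Willebrand factor, a clotting protein that platelets also store. Vwf had log2 levels of 7.08 to 12.03 (median 8.78) on the 8 stem, 6.70 to 8.75 (median 7.40) on the 7 progenitor and 6.53 to 9.59 (median 8.19) on the 8 mature luminal arrays.

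Secreted and matrix members closed the list. Mmrn2 is a matrix glycoprotein made by endothelium. Log2 levels of Mmrn2 on stem arrays were 11.92 and 12.70 at 3 weeks, 10.49 and 10.48 at 9 weeks, 8.02 and 7.74 at day 10, 8.14 at day 16 and 10.33 in retired breeders. In luminal progenitors Mmrn2 had log2 levels of 7.30 and 8.04 at 3 weeks, 6.82 and 6.62 at 9 weeks, 8.50 at day 10, 9.35 at day 16 and 8.59 in retired breeders. Mature luminal Mmrn2 log2 levels were 10.12 at 3 weeks, 6.89 and 6.49 at 9 weeks, 5.98 and 7.33 at day 10, 5.83 at day 16, 7.14 at day 19 and 9.02 in retired breeders. The virgin stem arrays lay above the other 19, followed by the retired stem array at 10.33 and the 3-week mature luminal array at 10.12. Egfl7 is a secreted factor of vessel tube formation. Log2 levels of Egfl7 on stem arrays were 11.92 and 11.95 at 3 weeks, 10.50 and 9.01 at 9 weeks, 7.44 and 7.79 at day 10, 8.34 at day 16 and 8.94 in retired breeders. In luminal progenitors Egfl7 had log2 levels of 8.20 and 8.62 at 3 weeks, 6.90 and 6.54 at 9 weeks, 7.42 at day 10, 8.06 at day 16 and 7.44 in retired breeders. Mature luminal Egfl7 log2 levels were 8.98 at 3 weeks, 6.61 and 7.91 at 9 weeks, 5.90 and 7.05 at day 10, 6.36 at day 16, 6.73 at day 19 and 8.13 in retired breeders. Virgin stem arrays lay above the other 19, narrowly so for the second 9-week array at 9.01. Esm1 codes for endocan, made by tip cells at the front of growing vessels. Log2 levels of Esm1 on stem arrays were 10.42 and 10.07 at 3 weeks, 10.02 and 10.26 at 9 weeks, 7.12 and 5.75 at day 10, 4.56 at day 16 and 7.98 in retired breeders. In luminal progenitors Esm1 had log2 levels of 5.0 and 3.92 at 3 weeks, 6.78 and 6.18 at 9 weeks, 6.58 at day 10, 8.01 at day 16 and 5.44 in retired breeders. Mature luminal Esm1 log2 levels were 8.19 at 3 weeks, 4.38 and 3.76 at 9 weeks, 8.91 and 7.32 at day 10, 5.78 at day 16, 7.41 at day 19 and 5.83 in retired breeders. Virgin stem arrays spanned only 10.02 to 10.42, and both day-10 stem arrays lay below both day-10 mature luminal arrays. Apln codes for apelin, a ligand made by sprouting endothelium. Log2 levels of Apln on stem arrays were 4.73 and 4.45 at 3 weeks, 2.92 and 0.17 at 9 weeks, 5.13 and 1.74 at day 10, 2.20 at day 16 and 1.96 in retired breeders. In luminal progenitors Apln had log2 levels of 2.35 and 1.75 at 3 weeks, 2.44 and 1.81 at 9 weeks, 5.31 at day 10, 2.08 at day 16 and 2.08 in retired breeders. Mature luminal Apln log2 levels were 0.71 at 3 weeks, 3.01 and 2.45 at 9 weeks, 2.13 and 1.93 at day 10, 6.77 at day 16, 3.23 at day 19 and 2.05 in retired breeders. Its highest value was on the day-16 mature luminal array, and Apln exceeded the array's median on 3 of the 23 arrays. Aplnr is the apelin receptor. Aplnr had log2 levels of 4.92 to 11.28 (median 7.72) on the 8 stem, 4.18 to 9.55 (median 6.30) on the 7 progenitor and 4.05 to 8.61 (median 5.71) on the 8 mature luminal arrays. For Aplnr both pregnant progenitor arrays lay above all 3 pregnant stem arrays.

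**Figure D3:**
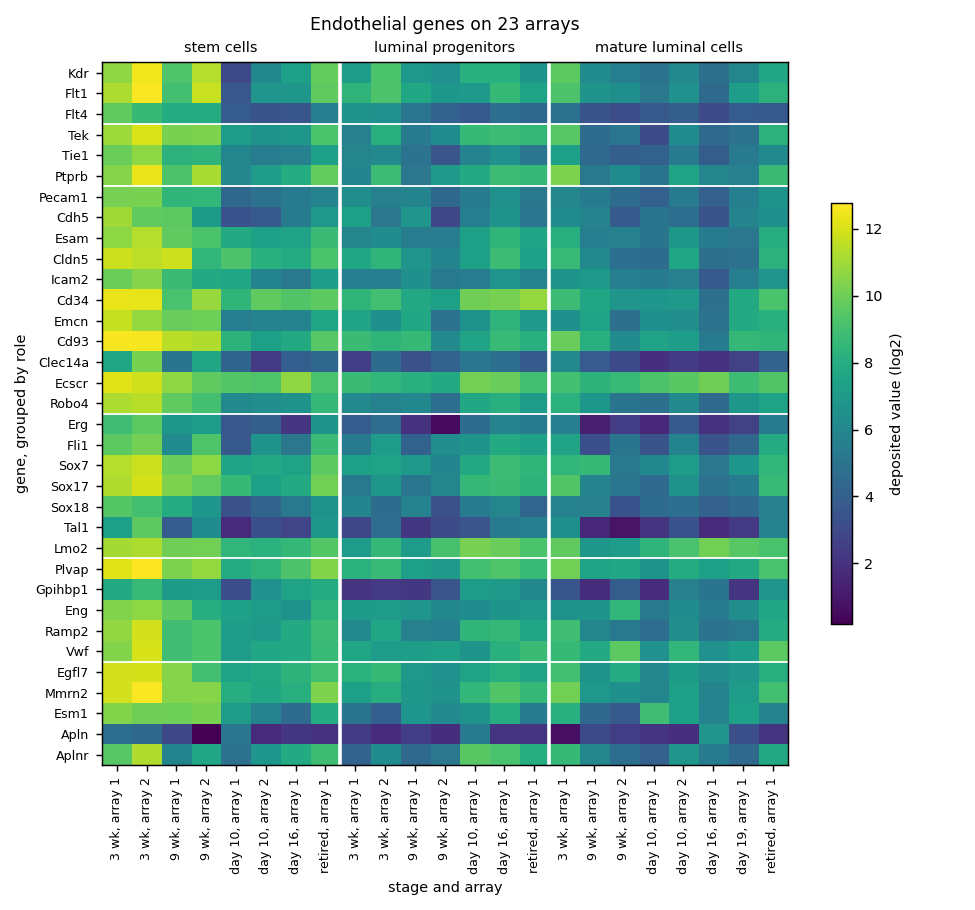
Deposited log2 value (colour, from dark for low to yellow for high) of the 34 genes (rows, in the order of their roles with white lines between roles) on the 23 arrays (columns, by cell type and stage). The 4 virgin stem columns at the left are bright for most rows, and Apln, near the bottom, is dark on most arrays. Colours compare arrays within a row, since levels of different probe sets are not comparable.

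**Figure D4:**
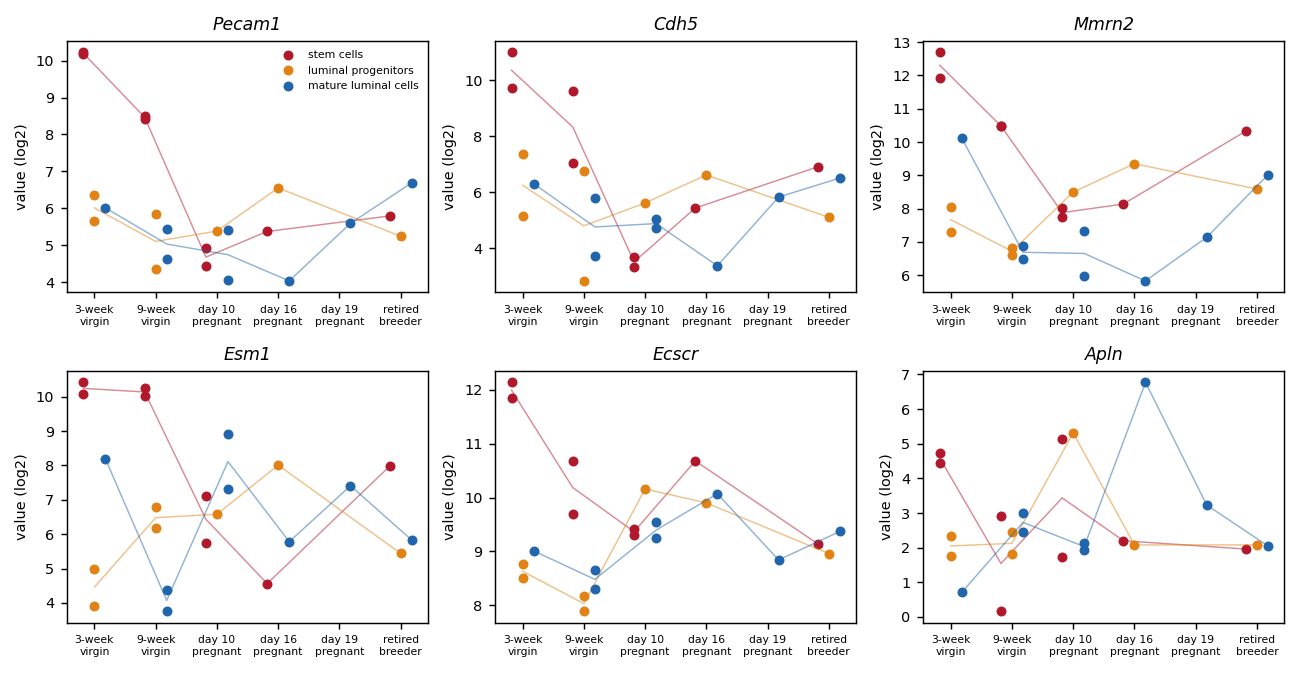
Deposited log2 value (vertical axis) on each array by stage (horizontal axis) for Pecam1, Cdh5, Mmrn2, Esm1, Ecscr and Apln. Points are arrays and lines join the means of a cell type's stages. Pecam1, Cdh5, Mmrn2 and Esm1 are high in virgin stem cells and lower in pregnant ones, Ecscr is at similar levels in the 3 cell types in pregnancy, and Apln is low with its highest value of 6.77 on the day-16 mature luminal array.

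The next comparison asked how age in virgins bears on these genes. Averaged over the 3 cell types, 2 of 34 were higher at 3 than at 9 weeks and 0 lower, where 0.163% of all genes were higher and 0.013% lower. They were Mmrn2 (2.07 ± 0.34 log2) and Plvap (1.95 ± 0.33), both at a limma adjusted p of 0.0484, and Erg followed at 3.00 ± 0.53 log2 with an adjusted p of 0.0539. All 34 differences were positive, with a median of 1.71 log2, against 0.11 for all genes, and 25 had an unadjusted p under 0.05. Markers of other cells ran the same way, with medians of 2.75 log2 over 7 lymphatic genes (7 positive, 2 past the threshold), 1.78 over 15 leukocyte genes (14 positive, 0 past it, 3 at an unadjusted p under 0.05), 1.58 over 5 erythroid genes (5 positive, 1 past it) and 1.31 over 10 fibroblast genes (10 positive, 0 past it, 4 at an unadjusted p under 0.05). Their part in the result was not tested. With the block over all arrays 17 were higher, and 0 with the block over the numbered arrays. Over all genes 408 and 17 were called in these fits, against 27 without a block. In every fit that left 1 array out, calls over all genes fell along with the count of the 34. Leaving out any 1 of the 11 arrays of 3 and 9 weeks gave 0, with a median of 1.30 to 1.87 log2, and 0 were called within the arrays titled replicate 1 (median 1.27 log2, 10 at an unadjusted p under 0.05) and within the others (median 2.04, 15 at an unadjusted p under 0.05).

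In stem cells alone the 3-week level was higher than the 9-week level for all 34 genes, by a median of 1.82 log2, against 0.04 for all genes, but 0 passed by limma, with 18 at an unadjusted p under 0.05, and 0% of all genes passed. Ecscr had the smallest p, at 1.81 ± 0.43 log2 with an adjusted p of 0.394, followed by Cd34 at 2.35 ± 0.63 and Plvap at 1.96 ± 0.53. Both 3-week stem arrays lay above both 9-week stem arrays for 28 of 34 genes, against 15.4% of all genes. Esm1 had the smallest difference of the 34, at 0.10 ± 0.71 log2. Leukocyte markers had a median of 1.45 log2 (12 of 15 positive) and mural markers of 1.02 (10 of 10 positive), while basal markers had one of -0.73 (13 of 13 negative), with 0 of each list past the threshold and 0, 1 and 0 at an unadjusted p under 0.05 (limma). Their part was not tested. Between arrays of the same replicate number the median difference was 1.49 log2 for number 1 and 2.20 for number 2. In luminal progenitors both 3-week arrays lay above both 9-week arrays for 15 genes, against 15% of all genes. The 3-week mature luminal array lay above both 9-week ones for 27 genes, where 43.7% of all genes did, and it is the array with the largest Gapdh excess, whose part in the result was not tested.

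Pregnancy was then set against 9-week virgins. In stem cells 2 of 34 genes fell and 0 rose, where 0.26% of all genes passed, 0.221% lower and 0.039% higher. Esm1 fell by 4.64 log2 (SE 0.66, limma adjusted p = 0.0155) and Flt4 by 4.35 (SE 0.59, adjusted p = 0.0129). The size of these falls is uncertain, since values below the median of an array can be background. All 3 pregnant stem values of Flt4 lay there, as did Esm1 on the day-16 stem array. Pecam1, next in rank, was at -3.44 ± 0.65 log2 with an adjusted p of 0.0687. The median difference was -2.53 log2, against 0.13 for all genes, 32 of 34 were negative and 26 had an unadjusted p under 0.05. The 2 with a positive difference were Apln and its receptor Aplnr, at 1.27 ± 1.05 and 0.14 ± 1.04 log2. All 3 pregnant stem arrays lay below both 9-week stem arrays for 27 genes, against 10.7% of all genes.

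With the replicate number as a block over all arrays 16 genes fell in stem cells, and 14 with the block over the numbered arrays. Calls over all genes rose as well, from 40 without a block to 339 and 167 in the same order. Arrays of day 10 and of 9 weeks that share a number differed by a median of -2.50 log2 for number 1 and -2.61 for number 2, and in each pair 33 of 34 genes were lower at day 10, Apln being the exception. The count of the unblocked fit was 0 without either 9-week stem array and 1 without the day-16 stem array, and the median stayed between -2.60 and -2.48 log2. Leukocyte markers ran the other way in these cells, with a median of 1.54 log2 over 15 genes and 0 past the threshold, and the 10 fibroblast markers had a median of -0.58. The basal markers had a median of 0.49 log2 with 0 of 13 past the threshold. The part of other cells in the fall of the endothelial genes was not tested.

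Averaged over the 3 cell types, pregnancy left 1 of 34 genes higher and 1 lower than at 9 weeks, where 3.77% of all genes were higher and 3.36% lower. Ecscr was 1.03 ± 0.24 log2 higher (adjusted p = 0.0237) and Flt4 was at -1.53 ± 0.35 (adjusted p = 0.0238), followed by Eng at -1.28 ± 0.40 (adjusted p = 0.0763). The median was -0.25 log2, against 0.10 for all genes, and -0.40 to -0.10 with 1 array left out. The block over all arrays gave 2 higher and 5 lower, and the block over numbered arrays 0 higher and 10 lower, a fit that also leaves out the arrays of all groups with 1 array. Within arrays titled replicate 1 the median was -1.88 log2, and within the others it was 0.02. The arrays titled replicate 1 hold no pregnant progenitors and no day-16 array, so their values compare day 10 with 9 weeks. The call of Ecscr was lost without the day-10 or either 9-week progenitor array, the day-16 stem or mature luminal array or the first 9-week mature luminal array. That of Flt4 was lost without the day-10 or first 9-week progenitor array, the day-16 mature luminal array or the first 9-week mature luminal array, and within arrays titled replicate 1 the difference of Ecscr was -0.34 log2.

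The average combines opposite courses. In luminal progenitors both pregnant arrays lay above both 9-week arrays for 22 of 34 genes, against 34% of all genes. In mature luminal cells all 3 arrays of days 10 and 16 lay below both 9-week arrays for 2 genes, Clec14a and Eng, against 16% of all genes. Between day-10 and 9-week mature luminal arrays of number 1 the median difference was -0.90 log2, with 27 of 34 genes lower at day 10, and for number 2 it was 1.07, with 29 higher. Esm1 was higher at day 10 in both pairs, by 4.53 and 3.56 log2, though both of its 9-week values lay below the median of their array. The change in stem cells less that in mature luminal cells was tested as an interaction: 1 of 34 passed, Esm1 at -7.52 ± 0.93 log2 (adjusted p = 0.0305), where 0.013% of all genes passed, and the median was -2.21 log2, against 0.20 for all genes. Flt4 followed at -4.51 ± 0.84 log2 (adjusted p = 0.169) and Lmo2 at -4.07 ± 0.87. The sizes for Esm1 and Flt4 are uncertain, since values below the median of an array can be background. Esm1 lay there on both 9-week mature luminal arrays and the day-16 stem array, and Flt4 on every mature luminal and pregnant stem array. The block over all arrays gave 4 genes lower, and called 113 of all genes, against 2 without it. Esm1 lost its call without either 9-week stem array, the second 9-week mature luminal, first day-10 mature luminal, second day-10 stem or day-16 stem array.

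Taken over both virgin ages, the stem minus mature luminal gap in pregnancy less that in virgins also passed for Esm1 alone of the 34, at -5.51 ± 0.83 log2 (adjusted p = 0.028), where 0.176% of all genes passed. The size for Esm1 is uncertain, since its values on both 9-week mature luminal arrays and the day-16 stem array lay below the median of their array. This comparison was also chosen after the values had been seen. The median of the 34 was -1.81 log2, against 0.28 for all genes, and 33 were negative. The block over all arrays gave 7 genes lower, and called 439 of all genes, against 27 without it. The call of Esm1 was lost without any one of 9 of the 13 arrays, namely either 3-week stem array, the first 9-week stem, the second 9-week mature luminal, either day-10 stem, the first day-10 mature luminal, the day-16 stem and the day-16 mature luminal array.

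In retired breeders 0 of 34 genes differed from 9-week virgins over the 3 cell types by limma, with 12 at an unadjusted p under 0.05 (0.0065% of all genes passed). The median difference was 0.73 log2, against 0.21 for all genes, and 28 were positive. That median was 1.49 without the retired stem array and 0.21 without the retired mature luminal array. Markers of other cells had medians of 2.03 log2 over 10 fibroblast genes (10 positive), 1.76 over 15 leukocyte genes (14 positive), 2.05 over 4 adipocyte genes (4 positive) and 1.53 over 10 mural genes (9 positive), with 0 past the threshold in each list and 6, 2, 4 and 5 at an unadjusted p under 0.05 (limma), and their part was not tested. Erg was at 2.45 ± 0.60 log2 (adjusted p = 0.592), Tal1 at 3.07 ± 0.78 and Cd34 at 1.64 ± 0.44. The retired stem array lay above all 3 pregnant stem arrays for 29 genes, against 33% of all genes, and below both 9-week stem arrays for 21, against 15.9%. The retired mature luminal array lay above both 9-week arrays for 28 genes, against 34.3% of all genes, and the retired progenitor array for 22, against 41.7%. Each retired group has 1 array, and the stem one has the second largest Gapdh excess, whose part was not tested.

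Ligands and co-receptors of the pathway were read from a list of 12 genes, of which 11 were tested. Over the 5 stages 4 of 11 were higher in stem than in mature luminal cells, where 6.78% of all genes were. In pregnant against 9-week stem cells 1 of 11 was lower, where 0.221% of all genes were. In virgins 2 of 11 were higher in stem cells than in progenitors, where 4.24% of all genes were. They were Calcrl, the receptor that pairs with Ramp2 (2.75 ± 0.40 log2, limma adjusted p = 0.0033), and Nrp2, a co-receptor of VEGF-C (2.90 ± 0.46, adjusted p = 0.0049). Angpt2, the angiopoietin made by endothelium itself, was at 3.36 ± 0.89 log2 (adjusted p = 0.0548) and Vegfc at 3.02 ± 0.84. Vegfa, the main growth factor of endothelium, had medians of 11.2 on stem, 11.1 on progenitor and 11.0 on mature luminal arrays. Over the 5 stages Pgf, a VEGF relative, was 3.09 ± 0.40 log2 higher in stem than in mature luminal cells (adjusted p = 0.0008). Pgf did not share the fall in pregnancy, at 1.30 ± 0.68 log2 in pregnant against 9-week stem cells (adjusted p = 0.478), while Calcrl fell by 3.34 log2 (SE 0.53, adjusted p = 0.0307).

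A separate list of 43 further endothelial genes, of which 42 were tested, is set beside the members. Of all genes, 4.24% were higher and 0.358% lower in virgin stem cells than in virgin progenitors. In pregnant against 9-week stem cells 0.221% of all genes were lower and 0.039% higher. From the separate list the counts were as follows. In virgins 29 were higher in stem cells than in progenitors and 0 lower, with a median of 2.78 log2, for instance Notch4, a Notch receptor of endothelium (4.81 ± 0.51, adjusted p = 0.0011), Adgrf5, an adhesion receptor (4.01 ± 0.44, adjusted p = 0.0011), Dll4, the Notch ligand of tip cells (4.10 ± 0.50, adjusted p = 0.0022), and Hhex, a homeobox factor (3.19 ± 0.40, adjusted p = 0.0022). In pregnant against 9-week stem cells 3 fell and 0 rose, namely Hhex by 4.15 log2 (SE 0.53, adjusted p = 0.0091), Podxl by 2.77 (SE 0.41, adjusted p = 0.0206) and S1pr1 by 3.71 (SE 0.65, adjusted p = 0.0473). Of 7 genes listed as lymphatic markers 3 were higher in virgin stem cells than in progenitors, Pdpn (2.39 ± 0.46 log2), Reln (2.89 ± 0.67) and Stab2 (2.14 ± 0.54). Prox1 and Lyve1, also on the list, did not pass. In pregnant against 9-week stem cells 1 of 7 passed, Lyve1, which fell by 4.52 log2 (SE 0.75, limma adjusted p = 0.0395). Of the 7, 5 were negative and 2 positive, Reln and Pdpn. On stem arrays Reln was at 9.95 and 10.91 at 9 weeks and 11.68 to 12.08 in pregnancy. Pdpn was at 11.79 and 12.97 at 9 weeks and 12.57 to 12.85 in pregnancy.

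Markers of the other cells that a digest can hold were read beside these results. The counts past the threshold below are for virgin stem cells against progenitors, where 4.24% of all genes were higher. For mural cells, which wrap vessels, 10 markers averaged 5.62 to 7.59 on stem, 4.42 to 7.22 on progenitor and 4.25 to 6.95 on mature luminal arrays, and 1 of 10, Rgs5 (3.44 ± 0.78 log2, adjusted p = 0.028), was higher in virgin stem cells than in virgin progenitors. Fibroblast markers (10 genes) averaged 7.02 to 9.02 on stem, 7.02 to 10.4 on progenitor and 4.16 to 7.40 on mature luminal arrays, and their highest means, 10.13 and 10.41, were on the day-10 and day-16 progenitor arrays, where the endothelial genes also stood above the 9-week progenitors. In virgins 1 of 10, Fbln2, was higher in stem cells than in progenitors (3.43 ± 0.49 log2, adjusted p = 0.003). Leukocyte markers (16 genes) averaged 4.90 to 7.46 on stem, 4.02 to 8.23 on progenitor and 3.12 to 8.88 on mature luminal arrays, with 0 of 15 tested past the threshold in virgin stem cells against progenitors (0 also at an unadjusted p under 0.05, limma). The array with the leukocyte mean of 8.88 is the 3-week mature luminal one, which also had the highest endothelial mean of its cell type. At the floor of 0 on some array were Itgam among the leukocyte markers, Des among the mural ones and none of the fibroblast or lymphatic ones. The summed log2 signal of the 10 mural markers ran from 9.71 to 12.7 on stem, 8.92 to 11.8 on progenitor and 9.10 to 11.7 on mature luminal arrays, that of the 10 fibroblast markers from 11.9 to 13.2, 11.2 to 14.5 and 8.05 to 11.9 in the same order, and that of the 16 leukocyte markers from 10.9 to 12.7, 9.86 to 13.6 and 9.22 to 14.1. The part of these cells in the endothelial values was not tested.

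**Figure D5:**
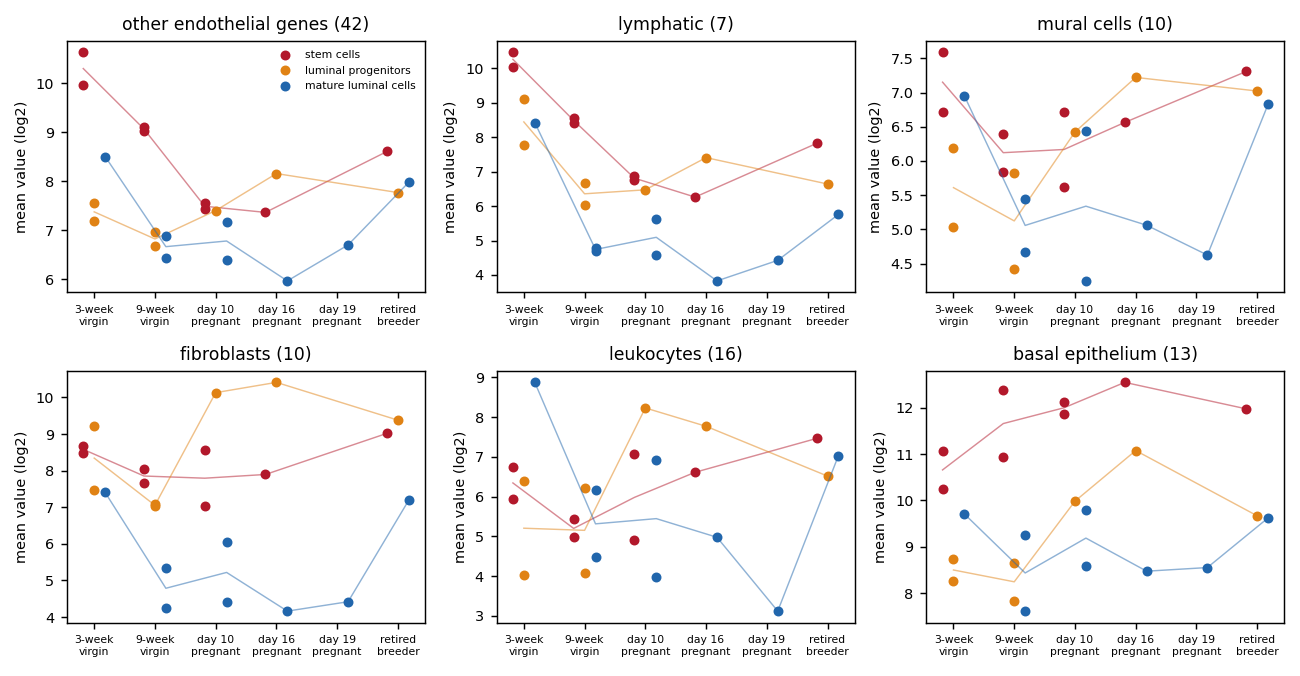
Mean deposited log2 value (vertical axis) of 6 other marker lists on each array by stage (horizontal axis), with the number of genes in brackets. Points are arrays and lines join the means of a cell type's stages. The further endothelial and the lymphatic genes are highest in 3-week stem cells, the fibroblast means are highest on the pregnant progenitor arrays at 10.13 and 10.41, and the basal means are highest in stem cells at each stage.

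Of the 34 genes, 14 had more than 1 probe set, which gave 24 further probe sets. Their stem minus progenitor difference in virgins was positive for 24 of 24, from 1.29 to 4.58 log2, and the stem minus mature luminal difference for 23 of 24, the exception being a probe set of Ptprb at -0.33. Pregnant minus 9-week stem cells was negative for 21 of 24, with a median of -2.01 log2. The 3 positive ones belonged to Cdh5 (0.94 log2), Cd93 (0.44) and Sox7 (0.02), each below the median of its array on all but 1 array.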

How the data were processed

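RNA of 23 samples was measured on Affymetrix arrays, 8 of stem cells, 7 of luminal progenitors and 8 of mature luminal cells. The deposited values are log2 values per probe set, from 0 to 14.28, as the values themselves show, and how the authors normalized them is not stated in the labels. No detection calls were used, so low values can include background. Each gene was taken from its single-symbol probe set with the highest mean, which gave 18193 genes, and the 15378 above their array's 40th percentile on at least 2 arrays were tested. A limma model (version 3.58.1, R 4.3.3) with a mean per group over 16 groups, 7 with 2 arrays and 9 with 1, used a trended prior with 7 residual and 4.74 prior degrees of freedom. P-values were Benjamini-Hochberg adjusted over all genes, with a threshold of 0.05, and the model was tested on simulated data. The members and lists were chosen with earlier results of these data known. Values on every array are given for the 10 members with the smallest p between stem and mature luminal cells, the 3 with the smallest p in each other comparison among those first planned, Pecam1 and Cdh5, and for Apln, whose sign was opposite. Up to 4 genes of other lists are named by smallest p, and others were chosen after their values were seen.

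Replicate numbers in the titles pair the samples: deviations of same-numbered arrays from their group means correlated over genes in all 21 pairs of groups (0.303 to 0.682, median 0.470). The block over all arrays puts the 8 unnumbered arrays with replicate 2, a split known from earlier results, and the block over numbered arrays uses the groups with 2 arrays. Alternatives were quantile normalization, no filter, values under an array's median set to that median, the mean of a gene's probe sets, fits of only the groups compared, and leaving out arrays. Fits within arrays titled replicate 1, or within the others, add a stage term and a cell type term in place of a mean per group. They do not cover the same stages and cell types as the fit of all arrays. Promoter sequences are from RefSeq (GRCm38.p6).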

Additional observations from a re-analysis of the deposited data

Results flagged for a closer look

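Differences between groups in the same contrast were listed where the test of the difference itself passed (limma, adjusted p under 0.05), which held for 17 values. The change of Esm1 from 9-week virgins to pregnancy differed between stem and mature luminal cells by -7.52 log2. Its stem minus mature luminal gap differed between pregnant and virgin mice by -5.51 log2. Both sizes are uncertain, since Esm1 lay below the array's median on both 9-week mature luminal arrays and the day-16 stem array.

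The other 15 are stem minus progenitor gaps, in pregnant mice less those in virgins. Like the Esm1 gap against mature luminal cells, they were chosen for testing after the values had been seen. Among receptors and surface genes they were -6.46 log2 for Tek, -4.71 for Tie1, -4.72 for Pecam1, -4.76 for Esam, -3.92 for Cd34, -5.64 for Emcn, -2.77 for Ecscr and -6.13 for Robo4. Among transcription factors they were -7.57 log2 for Erg, -5.80 for Sox17 and -4.20 for Lmo2. The size for Erg is uncertain, since its virgin progenitor and pregnant stem values lay below the median of their array. The remaining gaps were -4.16 log2 for Plvap, -4.92 for Ramp2, -5.12 for Mmrn2 and -6.52 for Esm1.

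None of these 17 kept its call when each array was left out in turn. The pregnant progenitor arrays, 1 each at day 10 and day 16, also had the highest fibroblast means, 10.13 and 10.41 log2, and the part of these cells in the gaps was not tested.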

How the results depend on the processing

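Values are counts of the 34 genes past the threshold. In most comparisons the number called among all genes changed in the same fits, so a changed count is not particular to these genes. With 1 array left out the ranges were 15 to 23 for stem against mature luminal cells, 5 to 18 for stem against progenitor, 0 to 1 for progenitor against mature luminal, 0 to 0 for 3 against 9 weeks over all cells and in stem cells, 0 to 3 for pregnant against 9 weeks, 0 to 2 in stem cells, 0 to 0 for retired, and 0 to 1 for the pregnancy change of stem less mature luminal cells. They were 0 to 6 for pregnant and 3 to 19 for virgin stem against mature luminal cells, 0 to 0 for pregnant and 21 to 32 for virgin stem against progenitor, and 0 to 1 (mature luminal) and 0 to 11 (progenitor) for the gap between states.

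The replicate block over all arrays gave 31 for stem against mature luminal cells, 21 against progenitor, 1 for progenitor against mature luminal, 17 for 3 weeks, 7 for pregnant, 16 for pregnant stem, 4 for the pregnancy change, 7 for pregnant and 32 for virgin stem against mature luminal, 1 for pregnant stem against progenitor, and 7 for the mature luminal and 30 for the progenitor gap. The replicate block over numbered arrays gave 33 for stem against progenitor, 0 for 3 weeks, 10 for pregnant, 14 for pregnant stem and 1 for pregnant stem against mature luminal. Counts under these blocks changed for no other comparison by over 1.5 times. The numbered block could not be fitted for retired breeders or pregnant progenitors. The block over all arrays also raised the number of all genes called in every comparison, for instance from 1283 to 3023 for stem against mature luminal cells.

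Quantile normalization gave 1 for progenitor against mature luminal, 0 for 3 weeks, 0 for the pregnancy change, 1 for pregnant stem against mature luminal and 2 for the mature luminal gap. Raising low values gave 1, 9, 1, 6 and 4 for progenitor against mature luminal, 3 weeks, 3 weeks in stem cells, pregnant stem and the mature luminal gap. No filter gave 0 for 3 weeks, and probe set means gave 1 for pregnant stem against mature luminal. Fitting only the groups compared gave 0 for 3 weeks, pregnant, pregnant stem, the pregnancy change and the mature luminal gap, and 1 for pregnant and 13 for virgin stem against mature luminal. Without the 3-week mature luminal and retired stem arrays, progenitor against mature luminal gave 1 and 3 weeks gave 0. Arrays titled replicate 1 alone gave 7 for stem against mature luminal, 0 for 3 weeks and 1 for pregnant, and the others alone 4, 0 and 0, and 0 for stem against progenitor. Among named genes, Ecscr in pregnancy was at -0.34 log2 within replicate 1. Those arrays hold no pregnant progenitors and no day-16 array, so this value covers fewer cell types and days than the main one. The cause of these changes was not tested, and fits that leave arrays out also have fewer arrays. Groups of 1 or 2 arrays limit the precision.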
